A study of Mus musculus with 4 samples.

Results

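The metabotropic glutamate receptors measured here are 6 genes, Grm2, Grm3, Grm4, Grm5, Grm7 and Grm8, chosen by their symbols from the 32285 genes of the count matrices and found there once each. These receptors are G protein-coupled receptors that sense glutamate released at synapses. Group I, to which Grm5 belongs, couples to Gq, phospholipase C and the release of calcium from internal stores, and sits mainly around the postsynaptic membrane. Group II (Grm2 and Grm3) and group III (Grm4, Grm7, Grm8 and the retinal Grm6) couple to Gi/o, lower cyclic AMP and often restrain transmitter release from presynaptic endings. In the hippocampus Grm2 is known from the granule neurons of the dentate gyrus, whose mossy fibres it restrains, Grm3 is known from glia as well as neurons, and Grm7 is found at the release sites themselves.

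The nuclei came from frozen hippocampi of 4 mice on a C57BL/6N background, 2 wild-type (WT) and 2 heterozygous Cyfip2+/R87C knock-in (KI) littermates, 1 library per mouse. The KI mice carry 1 mutant copy of Cyfip2, which encodes a subunit of the WAVE complex that steers actin assembly, in every cell. The treatment label of KI replicate 2 reads R88C where that of KI replicate 1 reads R87C, and both were kept as KI. Every library carries the same batch label. Since each mouse gave 1 library, the p-values below measure the spread between mice together with that of library making.

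The sequences upstream of 3 receptors are given first, because Grm3, Grm7 and Grm8 are the members whose level differed between genotypes in the dentate gyrus below. Each is the 250 bases before the first start site listed by RefSeq on GRCm38.p6, read on the gene's strand. Capitals mark GGGCGG, the GC box, and TGANTCA, a loose form of the AP-1 site in which N is any base. Both were searched on both strands together with TGACG, the core of the cyclic AMP response element, and no matches overlapped.
Grm3, chr5:9725353-9725602, minus strand: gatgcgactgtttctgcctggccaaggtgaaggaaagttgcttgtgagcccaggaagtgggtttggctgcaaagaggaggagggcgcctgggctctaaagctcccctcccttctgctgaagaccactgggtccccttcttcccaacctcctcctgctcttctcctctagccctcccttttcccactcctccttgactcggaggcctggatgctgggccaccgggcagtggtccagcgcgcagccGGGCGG
Grm7, chr6:110645262-110645511, plus strand: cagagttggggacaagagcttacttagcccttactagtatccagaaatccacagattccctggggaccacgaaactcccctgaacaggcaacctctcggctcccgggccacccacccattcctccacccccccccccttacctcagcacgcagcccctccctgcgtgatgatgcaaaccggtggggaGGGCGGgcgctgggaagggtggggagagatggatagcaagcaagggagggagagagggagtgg
Grm8, chr6:28135147-28135396, minus strand: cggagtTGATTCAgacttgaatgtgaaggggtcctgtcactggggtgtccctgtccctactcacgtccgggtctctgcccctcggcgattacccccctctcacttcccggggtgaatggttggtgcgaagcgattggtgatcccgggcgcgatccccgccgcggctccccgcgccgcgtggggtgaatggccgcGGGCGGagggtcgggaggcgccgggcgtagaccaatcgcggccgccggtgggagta
Each of the 3 windows held 1 GC box, a motif present in 32.9% of all 27025 gene promoters of this length. The Grm8 window also held 1 match to TGANTCA, as TGATTCA, and this loose pattern was found in 6.87% of promoters. None of the 3 held TGACG, found in 17.9%. G and C made up 62.4% of the Grm3 window, 62% of the Grm7 window and 68.4% of the Grm8 window. Of the 6 members, 4 had an entry. Grm2, whose window at chr9:106656110-106656359 on the minus strand held 3 GC boxes, was the fourth. RefSeq lists 3 start sites for Grm8 and 2 for Grm7, and the values above are those of the first. The window of the second Grm8 site held 1 TGACG and neither of the other motifs, and that of the third held none of them. A match of letters is a description of these windows and was not tied to any change.

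All 6 genes are protein-coding loci placed by GENCODE M21 on GRCm38. Grm5 (ENSMUSG00000049583) lies at chr7:87584168-88134907 on the plus strand. Grm2 (ENSMUSG00000023192) lies at chr9:106643095-106656082 and Grm3 (ENSMUSG00000003974) at chr5:9485541-9725170, both on the minus strand. Grm4 (ENSMUSG00000063239) lies at chr17:27422387-27521403 on the minus strand, Grm7 (ENSMUSG00000056755) at chr6:110645581-111567230 on the plus strand and Grm8 (ENSMUSG00000024211) at chr6:27275119-28135178 on the minus strand. None overlapped another gene on its own strand, while Grm2 overlapped Gm28111 and Grm7 overlapped Gm20387 on the opposite strand.

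The libraries held 73009975 to 80913580 UMIs, molecules counted once by their tag, in 55640 barcodes, of which 52016 nuclei were kept. Clustering, from which the receptors and their partners were left out, gave 28 clusters that were named from marker genes, so each class name below means "like" that type. The classes were dentate gyrus granule neurons (DG), CA1 and CA3 pyramidal neurons, inhibitory neurons, astrocytes, oligodendrocytes, oligodendrocyte precursors (OPC) and microglia, with 4 smaller classes and 5 interneuron subtypes. Clusters that met no name held 13.7% to 30.2% of a library, the most in KI replicate 2. Any 2 libraries shared 35 to 57 barcodes. The WT and KI nuclei of DG lay mostly in different clusters. Cluster 0 held 94.2% and 93.1% of the WT and 4.25% and 22.1% of the KI DG nuclei, and cluster 1 held the others. Oligodendrocytes were split the same way, with cluster 5 holding 97.9% and 99.2% of the WT and 1.66% and 10.4% of the KI nuclei. The libraries were clustered with no correction between them, and with 2 mice per genotype a difference between genotypes and one between preparations of the libraries cannot be told apart. Every DG and oligodendrocyte comparison of KI with WT carries this limit. Leaving out either KI library, so that the spread was that of the WT pair, raised the number of genes called in DG. Without KI replicate 2 the genes called in DG rose from 1678 to 8029 and the receptors from 3 to 5, whereas in astrocytes and OPC the highest counts, 416 and 531 genes, came without KI replicate 1.

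Over all nuclei Grm5 and Grm7 were the most abundant members and Grm2 and Grm4 the least. Levels are given as CPM, the receptor's share of all UMIs of the same library and class on the usual CPM scale. Grm5 ranged over the 4 libraries from 1734 to 2226 CPM, Grm7 from 1668 to 1957 CPM, Grm8 from 182 to 280 CPM and Grm3 from 150 to 194 CPM. Grm2 ranged from 5.70 to 14.2 CPM and Grm4 from 6.20 to 7.49 CPM. These genes differ greatly in length, and long genes give nuclear RNA more internal priming sites. Per 100 kb of gene the mean levels were 377 CPM for Grm5, 193 CPM for Grm7, 80.8 CPM for Grm2, 73.7 CPM for Grm3, 27.6 CPM for Grm8 and 6.85 CPM for Grm4, so that on this scale the short Grm2 stood beside Grm3 and above Grm8.

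**Figure D1:**
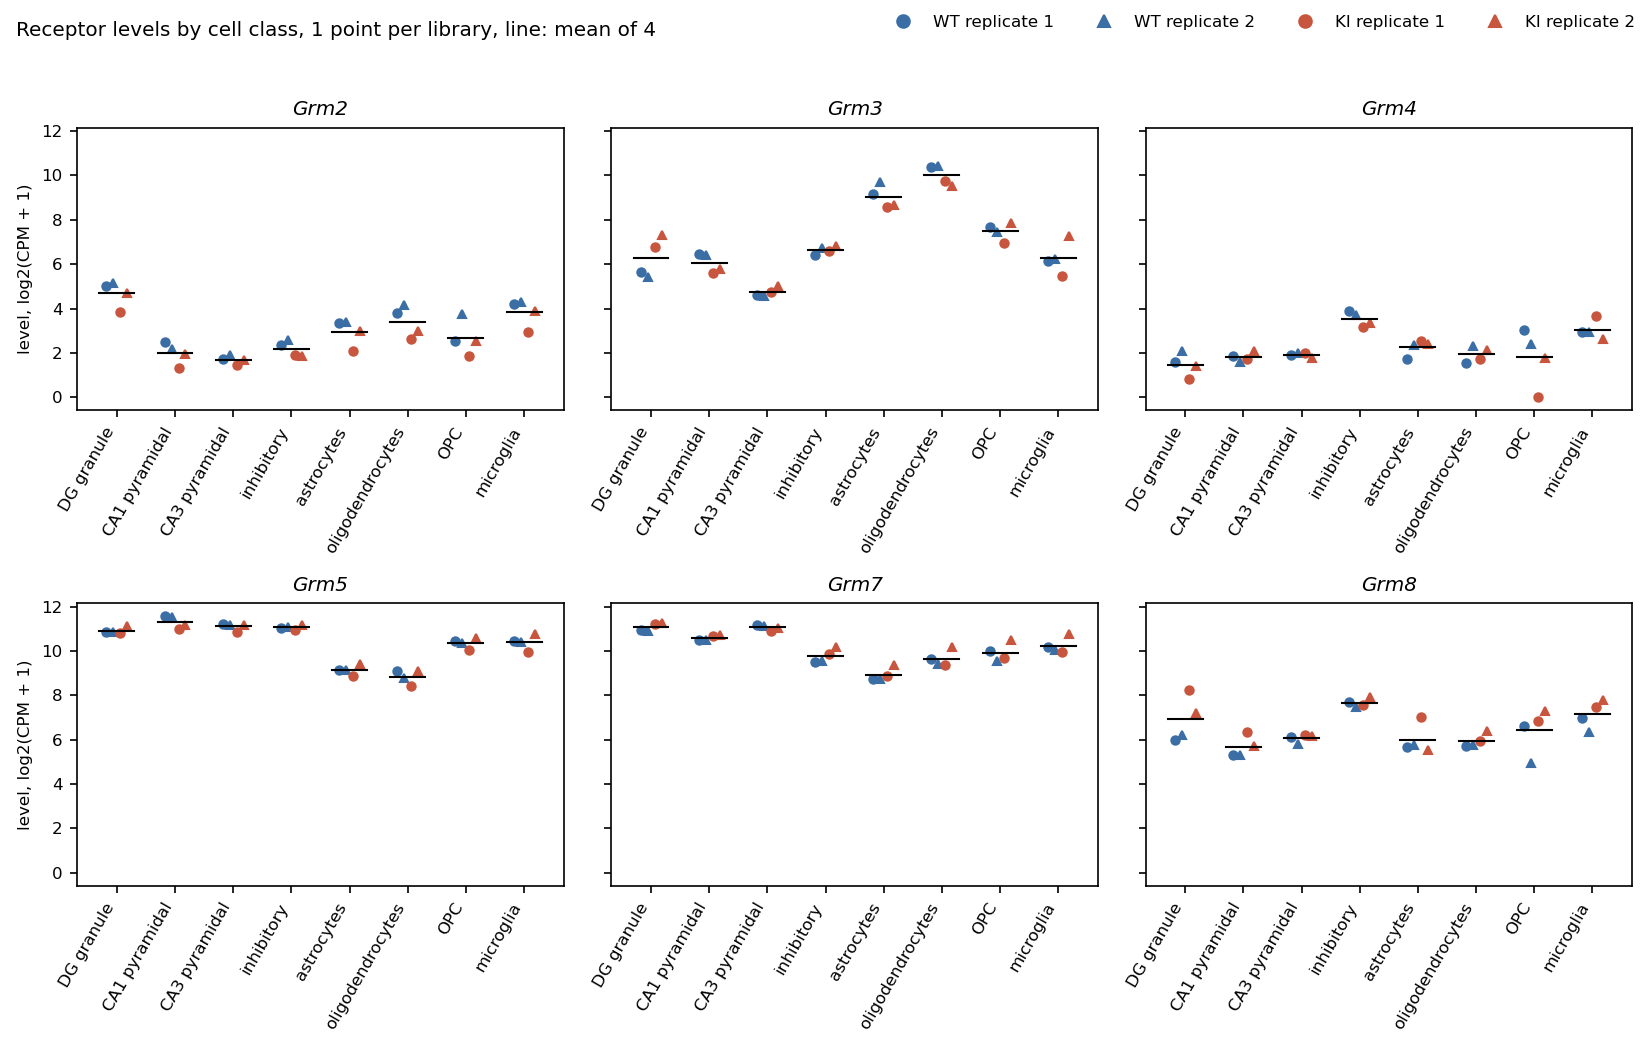
Level of each receptor in the 8 main classes as log2(CPM + 1), with 1 point per library (2 WT in blue and 2 KI in red) and a line at the mean of the 4. Grm3 stands highest in oligodendrocytes and astrocytes, Grm2 in DG, and Grm4 and Grm8 in inhibitory neurons. Grm5 is high in every neuronal class, and Grm7 is highest in DG and CA3.

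Among the 8 main classes Grm5, a group I receptor, was highest in the neuron classes, with CA1 at the top. Its mean was 2598 CPM in CA1 (2046 to 3022), 2220 CPM in CA3 (1879 to 2381), 2148 CPM in inhibitory neurons (2001 to 2303) and 1931 CPM in DG (1776 to 2210), and each of these ranges overlapped the next. Microglia (994 to 1731 CPM) and OPC (1045 to 1526 CPM) came next, below every DG library. Astrocytes with 566 CPM and oligodendrocytes with 468 CPM stood lowest. In UMIs per nucleus the contrast was wider, with 15.3 to 20 Grm5 UMIs in a CA1 nucleus, 1.90 to 5.26 in a microglial nucleus and 0.552 to 0.910 in an oligodendrocyte nucleus. Neuronal RNA was measurable in microglia. The 6 markers of DG granule neurons summed to 411 to 1072 CPM there, against 1937 to 2453 CPM in the DG granule neurons themselves, and its part in the microglial receptor levels was not tested.

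The group II receptors marked different cells. Grm2 was highest in DG, at 26.2 CPM (13.2 to 35.0), followed by microglia at 14.1 CPM (6.76 to 18.5), whose range overlapped that of DG. CA1 and CA3, at 3.12 and 2.28 CPM, stood 8.40-fold and 11.5-fold below DG. Grm3 was mostly glial, at 1074 CPM in oligodendrocytes (730 to 1386) and 548 CPM in astrocytes (381 to 823), 2 ranges that overlapped. OPC with 183 CPM (123 to 229) lay below both and above inhibitory neurons (85.2 to 113 CPM). DG, microglia and CA1 followed with overlapping ranges, and CA3 with 25.8 CPM (22.5 to 31.8) stood below every other class.

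The group III receptors were each distributed in their own way. Grm4 was at or below 13.8 CPM in every library of the main classes, highest in inhibitory neurons at 10.8 CPM (7.93 to 13.8) and lowest in DG at 1.93 CPM (0.774 to 3.32). Grm7 was highest in DG at 2178 CPM (1919 to 2468) and CA3 at 2142 CPM (1915 to 2284), which overlapped, and both lay above CA1 at 1557 CPM (1444 to 1694). The order of the first 2 differed by genotype, with CA3 above DG in both WT libraries and DG above CA3 in both KI libraries. Inhibitory neurons held 892 CPM of Grm7, with a mean below those of microglia (1244 CPM) and OPC (1008 CPM) and overlapping ranges, and astrocytes, below every other main class, 492 CPM (424 to 655). Grm8 was highest in inhibitory neurons at 205 CPM (176 to 245) and lowest in CA1 at 52.3 CPM (38.6 to 79.9), and its range in DG, 63.2 to 298 CPM, was the widest of the main classes. The low place of CA1 depended on how the class was drawn. With nuclei gated one by one on markers, the log2 difference of Grm8 in CA1 from the mean of the 7 other main classes turned from -0.76 to +0.94 (edgeR adjusted p = 0.000463).

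Each main class was then compared with the mean of the 7 others by edgeR's quasi-likelihood test with the library as a block. Because the classes differ in many genes, a large share of genes passes such a test, and the counts are read against that. All 6 receptors passed in DG, where 52.2% of genes tested passed, but Grm3 did so in 6 of 9 alternatives (not without either WT library or without doublet removal, edgeR adjusted p up to 0.431), Grm8 in 7 of 9 (not without KI replicate 1 or with the marker gate, up to 0.227) and Grm4 in 8 of 9. In CA1 5 passed (58.4% of genes tested), in CA3 4 (59.1%), in inhibitory neurons 5 (55.5%), in astrocytes 4 (48%), in oligodendrocytes 5 (59.4%), in OPC 1 (26.6%) and in microglia 3 (28.1%). The widest positive log2 differences were +3.25 for Grm3 in oligodendrocytes (edgeR adjusted p = 7.49e-16), +2.33 for Grm2 in DG (edgeR adjusted p = 6.59e-18), +2.12 for Grm3 in astrocytes, +1.79 for Grm4 in inhibitory neurons (edgeR adjusted p = 3.07e-09) and +1.41 for Grm8 in inhibitory neurons. Grm5 was raised by 1.31 in CA1 and lowered in oligodendrocytes (-1.90) and astrocytes (-1.59). Grm7 was raised by 1.30 in CA3 and 1.17 in DG. Grm3 stood lowest against the others in CA3, with a log2 difference of -2.53.

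Some cells outside the main classes held as much of a receptor as the leading main class, or more. Grm8 reached 761 to 1043 CPM in neurons named subicular or cortical and 579 to 825 CPM in Vip interneurons, above every main class. Grm5 reached 2299 to 3192 CPM in the subicular or cortical neurons, which overlapped CA1. It was only 526 to 950 CPM in Cajal-Retzius cells, 890 to 1039 CPM in Cnr1 and 944 to 1183 CPM in Vip interneurons. These ranges lay below that of microglia or overlapped it. Grm7 reached 2451 to 2873 CPM in Vip interneurons, which overlapped DG at its lower end, but only 192 to 258 CPM in Lamp5 interneurons, so that its level in inhibitory neurons as a whole depended on which subtypes they held. Grm3 reached 960 to 1205 CPM in mural cells, the contractile cells of small vessels, within the range of oligodendrocytes, although each library had only 27 to 38 of these nuclei.

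The genes whose levels followed each receptor most closely over the 32 class sums (8 classes in 4 libraries) were found among 10343 genes. They were Kcnb2, Jazf1 and Syt14 for Grm5 (Pearson r 0.973, 0.971 and 0.968), Fam163b, Npnt and Kcnc4 for Grm2 (0.907, 0.904 and 0.890), and Daam2 and Ak3 for Grm3 (0.931 and 0.906). For Grm7 they were Pcsk2 and Matk (0.920 and 0.919) and for Grm8 Gm15155, Unc5d and Ctps2 (0.889, 0.797 and 0.795). For the sparse Grm4 the closest, Tm6sf1, Manba and Dhps, reached only 0.787, 0.782 and 0.764. The sums share libraries and differ in depth between classes, so these values are descriptions across sums that are not independent.

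The second question was how each receptor differed between KI and WT, which were compared in each class by edgeR on the UMIs summed per library. With all nuclei pooled, 0 of the 6 receptors passed the threshold (adjusted p under 0.05), at which 0.875% of genes tested passed. The nearest were Grm8, at 182 and 215 CPM in WT, against 275 and 280 CPM in KI (log2 fold change +0.54, SE 0.10, edgeR adjusted p = 0.0712), and Grm2, at 13.2 and 14.2 CPM in WT, against 5.70 and 9.0 CPM in KI (-0.85, SE 0.22, edgeR adjusted p = 0.110). At an unadjusted p under 0.05 both passed, as 2 of the 6, and so did 5260 of 21715 genes tested. DESeq2 called 2 of the 6. Pooled sums mix changes within cells with changes in how many nuclei of each class a library holds.

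In DG (4001 and 3029 WT nuclei, 2401 and 2090 KI nuclei) 3 receptors were higher in KI, Grm3, Grm7 and Grm8, and 10.3% of genes tested passed. Grm3 was at 49.7 and 41.7 CPM in the WT libraries and at 109 and 159 CPM in the KI libraries. The groups did not overlap, and the level was 3.20-fold higher in KI (log2 fold change +1.68, SE 0.18, edgeR adjusted p = 0.00433). Grm8 was at 63.2 and 73.7 CPM in WT and at 298 and 146 CPM in KI. Both KI libraries lay above both WT libraries, but they differed from each other more than the WT libraries did, and the level was 3.60-fold higher (+1.85, SE 0.33, edgeR adjusted p = 0.0195). Grm7 was at 1980 and 1919 CPM in WT and at 2344 and 2468 CPM in KI, a 1.35-fold difference without overlap (+0.44, SE 0.07, edgeR adjusted p = 0.0142). The calls of Grm3 and Grm8 held without any 1 of the libraries, but the Grm8 value rested on KI replicate 1, without which it was +1.2 on the log2 scale. That of Grm7 was lost without either WT library, where its log2 fold change was +0.46 and +0.40. It was also lost with scaling by library totals (edgeR adjusted p = 0.0528), and passed in 8 of 13 alternatives.

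The other 3 receptors did not pass in DG. Grm2 was at 31.3 and 35.0 CPM in WT, against 13.2 and 25.2 CPM in KI (-0.67, SE 0.26, edgeR adjusted p = 0.148), so that both KI libraries lay below WT. Grm4 was at 2.00 and 3.32 CPM in WT, against 0.774 and 1.63 CPM in KI (edgeR adjusted p = 0.191), on 9 to 47 UMIs per library. Grm5 was at 1872 and 1865 CPM in WT, against 1776 and 2210 CPM in KI, which overlapped (+0.22, edgeR adjusted p = 0.179).

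**Figure D2:**
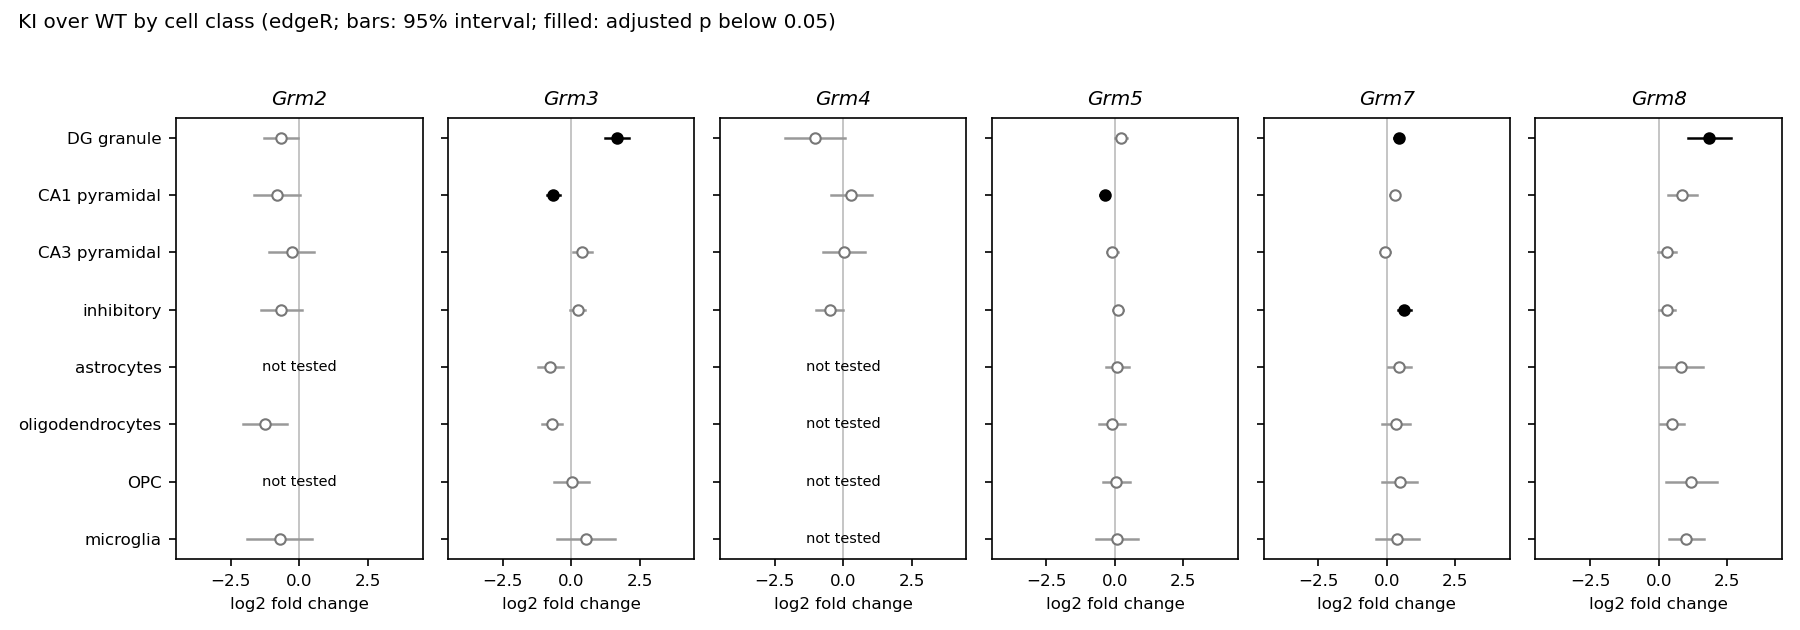
Log2 fold change of KI over WT for each receptor in the 8 main classes, with 95% confidence intervals from edgeR; filled points passed an adjusted p of 0.05, and a receptor below the low-count filter is marked as not tested. The 6 filled points are Grm3, Grm7 and Grm8 in DG (+1.68, +0.44 and +1.85), Grm3 and Grm5 in CA1 (-0.66 and -0.38) and Grm7 in inhibitory neurons (+0.64).

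Because the DG nuclei of the genotypes lay mostly in different clusters, the comparison was repeated within each, a step added after the clusters had been seen. Grm3 was higher in KI in both. In cluster 0 it was at 49.5 and 39.7 CPM in WT, against 80.0 and 102 CPM in KI (+1.22, edgeR adjusted p = 0.00173), and in cluster 1 at 54.5 and 74.1 CPM in WT, against 111 and 176 CPM in KI (+1.24, edgeR adjusted p = 0.00747). Grm8 was higher in KI in cluster 0, at 52.2 and 59.2 against 83.9 and 109 CPM (+1.0, edgeR adjusted p = 0.00224). In cluster 1 it was at 255 and 301 CPM in WT, against 308 and 157 CPM in KI, which overlapped (-0.15, edgeR adjusted p = 0.850). There the few WT nuclei, 234 and 210, already stood at the level of KI replicate 1. Grm7 did not pass within either cluster, with log2 fold changes of +0.07 (edgeR adjusted p = 0.834) and +0.04 (edgeR adjusted p = 0.926). Grm2 (+0.07 and -0.13) and Grm5 (+0.03 and -0.02) passed in neither, and Grm4 was not called in cluster 0 (-1.61) and was below the low-count filter in cluster 1. The genes that define the clusters were chosen from these same nuclei, so a value within a cluster is not independent of the split.

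**Figure D3:**
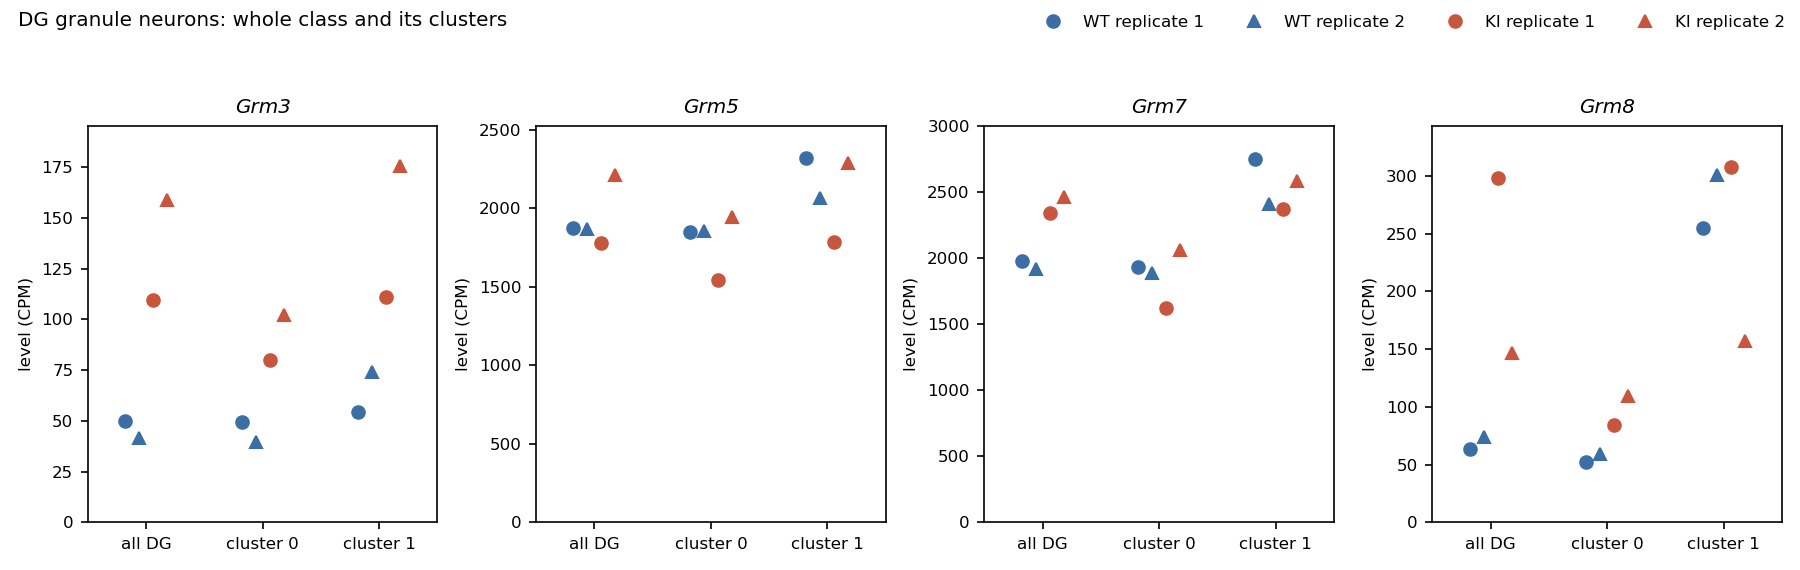
Level in CPM of Grm3, Grm5, Grm7 and Grm8 in all DG nuclei and in the 2 DG clusters, 1 point per library (WT in blue, KI in red). For Grm3 the KI libraries lie above the WT libraries in both clusters, for Grm8 in cluster 0 but not in cluster 1, and for Grm5 and Grm7 the groups overlap in each cluster.

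The same difference was seen as more nuclei with the transcript. With every nucleus thinned to 1000 UMIs, Grm3 was found in 4.82% and 4.14% of WT and 9.68% and 13.2% of KI DG nuclei, and before thinning in 15.8% and 15.4% of WT and 34.5% and 38.9% of KI nuclei. Grm8 was found in 5.25% and 5.93% of WT and 22.3% and 13.4% of KI DG nuclei after thinning (16.9% and 19.7%, and 53.9% and 34.4% before), and 5 to 18 nuclei per library were too shallow to enter. In microglia, which stand for background here, the thinned shares were 3.45% to 9.93% for Grm3 and 6.15% to 8.19% for Grm8, at a median depth of 1269 to 1436 UMIs per nucleus against 3727 to 4414 in DG. The WT shares in DG lay within or below the microglial range, so that thinned shares alone did not set the WT level apart from background, while both KI shares of Grm8 lay above every microglial one. In UMIs per nucleus, without thinning, WT DG held 0.261 and 0.345 of Grm8, against 0.0813 and 0.0856 in oligodendrocytes and 0.115 and 0.128 in astrocytes of the same libraries, whose nuclei are shallower. The Grm3 share of KI replicate 1 lay just under that of the highest microglial library.

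Markers of other cells moved with genotype in DG granule neurons as well. The summed OPC markers were at 44.5 and 51.4 CPM in WT, against 182 and 127 CPM in KI, and most of the rise was in Lhfpl3 (28.0 and 36.1 CPM in WT, 165 and 108 CPM in KI), while Pdgfra, the defining OPC receptor, was at 4.30 to 6.11 CPM. The 6 DG markers summed to 2437 and 2453 CPM in WT, against 1937 and 2145 CPM in KI. Most of that sum was Rfx3 (1701 and 1713 CPM in WT, 1310 and 1436 CPM in KI). Prox1 and Dsp were lower in KI too, while Plk5 and Trpc6 overlapped. C1ql2 was higher in KI (30.1 and 27.4 CPM in WT, 40.9 and 42.3 CPM in KI). Markers of oligodendrocytes, where Grm3 is highest, summed to 630 and 465 CPM in WT, against 578 and 658 CPM in KI, which overlapped. The part of these shifts in the receptor levels was not tested.

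In CA1 the direction of Grm3 was opposite to that in DG, and Grm5 was lower too. There 2 receptors passed, among 7.33% of genes tested. Grm3 was at 87.1 and 84.3 CPM in WT, against 47.9 and 54.9 CPM in KI, 1.58-fold lower without overlap (-0.66, SE 0.10, edgeR adjusted p = 0.0177). Grm5, the postsynaptic receptor of group I, was at 3022 and 2993 CPM in WT, against 2046 and 2332 CPM in KI, 1.30-fold lower (-0.38, SE 0.07, edgeR adjusted p = 0.0265). Grm7 was at 1444 and 1454 CPM in WT, against 1635 and 1694 CPM in KI (+0.28, edgeR adjusted p = 0.0526), and Grm8 at 38.6 and 38.9 CPM in WT, against 79.9 and 51.7 CPM in KI (+0.86, edgeR adjusted p = 0.0665), so both stood higher in KI short of the threshold. Grm8 passed in 7 of its 13 alternatives (edgeR or DESeq2 adjusted p 3.12e-06 to 0.412) and Grm7 in 3 of 13 (0.000190 to 0.545). Grm2 was at 4.56 and 3.51 CPM in WT, against 1.48 and 2.92 CPM in KI (edgeR adjusted p = 0.200), and Grm4 overlapped between the groups (edgeR adjusted p = 0.564).

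Neither CA1 call held in every alternative. Without WT replicate 1 or WT replicate 2 the adjusted p was 0.189 and 0.142 for Grm3 and 0.276 and 0.242 for Grm5, with log2 fold changes that kept their sign. With nuclei gated on markers the Grm3 call was lost too (edgeR adjusted p = 0.0922). Over all alternatives the edgeR or DESeq2 adjusted p ranged from 5.90e-05 to 0.189 for Grm3 and from 2.07e-05 to 0.276 for Grm5. Within the 2 CA1 clusters Grm3 was lower in KI in both, by 1.06 and 0.54 on the log2 scale (edgeR adjusted p = 0.00473 and 0.0287). Grm5 passed in cluster 4 (-0.42, edgeR adjusted p = 0.0123) and not in cluster 2 (-0.31, edgeR adjusted p = 0.0742).

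In CA3 0 of the 6 receptors passed, by edgeR and by DESeq2, among 2.64% of genes tested. Grm3 was at 23.1 and 22.5 CPM in WT, against 25.8 and 31.8 CPM in KI (+0.41, edgeR adjusted p = 0.188). It was the only member there with an unadjusted p under 0.05, which 3182 of 15319 genes tested had. Grm5 was at 2381 and 2330 CPM in WT, against 1879 and 2289 CPM in KI (-0.10, edgeR adjusted p = 0.601). Grm7, as abundant here as in DG, was at 2284 and 2242 CPM in WT, against 1915 and 2124 CPM in KI (-0.08, edgeR adjusted p = 0.600), and its 95% interval of -0.26 to 0.10 left out the +0.44 of DG but held the +0.07 and +0.04 within the DG clusters.

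In inhibitory neurons 1 receptor passed, Grm7, with 1.96% of genes tested. It was at 714 and 747 CPM in WT, against 933 and 1174 CPM in KI, 1.55-fold higher without overlap (+0.64, SE 0.11, edgeR adjusted p = 0.0206). The call was lost without WT replicate 1 (edgeR adjusted p = 0.0652), with library totals (0.0528), with nuclei gated one by one on markers (0.0588) and with a cluster led by Zic genes added (0.288). Of the 3 clusters of the class it passed in cluster 9 (+0.77, edgeR adjusted p = 0.0164) and not in cluster 17 (+0.26, edgeR adjusted p = 0.320), and in cluster 20 it turned to -0.10 (edgeR adjusted p = 0.809), while the range over its alternatives was 1.02e-12 to 0.809. Grm4, whose level was highest in this class, was at 13.8 and 12.2 CPM in WT, against 7.93 and 9.33 CPM in KI (-0.48, edgeR adjusted p = 0.264). Grm8 was at 207 and 176 CPM in WT, against 190 and 245 CPM in KI, which overlapped (+0.29, edgeR adjusted p = 0.260). It passed in 2 of 15 alternatives, within cluster 20 (+0.86) and without KI replicate 1 (edgeR adjusted p = 0.000363).

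Among the interneuron subtypes the higher Grm7 was called in Pvalb and Sst interneurons. In Pvalb interneurons, the fast-spiking cells that inhibit pyramidal cell bodies, Grm7 was at 254 and 403 CPM in WT, against 617 and 731 CPM in KI, on 59 to 179 nuclei per library. That was 2.2-fold higher without overlap (+1.13, SE 0.18, edgeR adjusted p = 0.00330), the 1 member called where 0.71% of genes tested passed, and all 8 alternatives kept the call. The subcluster behind the name had 3 of 5 markers raised but not Pvalb among its leading genes. Another subcluster of 418 nuclei, with Pvalb among its leading genes, met no name and is not part of this value. In Sst interneurons, which inhibit dendrites, it was at 1585 and 1624 CPM in WT, against 2109 and 2440 CPM in KI (+0.67, SE 0.15, edgeR adjusted p = 0.0254), again the 1 member called, where 0.687% of genes tested passed. The Sst call was lost without WT replicate 1 or WT replicate 2, where the log2 fold change was +0.65 and +0.68. It was also lost with library totals (edgeR adjusted p = 0.0979), and passed in 5 of 8 alternatives. The 6 inhibitory markers moved beside these values and were lower in KI, at 11794 and 11644 CPM in WT, against 7928 and 8657 CPM in KI in Pvalb interneurons, and their part was not tested.

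The other subtypes gave 0 calls by edgeR and DESeq2, with 0 receptors at an unadjusted p under 0.05 in Vip and 1 each in Lamp5 and Cnr1 interneurons. Genes at that cutoff were 508 of 5749 in Vip, 1567 of 10274 in Lamp5 and 986 of 9998 in Cnr1 interneurons. Vip interneurons, with the highest Grm7, were at 2847 and 2806 CPM in WT, against 2451 and 2873 CPM in KI (-0.02, edgeR adjusted p = 0.979), where 0.104% of genes tested passed. Lamp5 interneurons were at 245 and 216 CPM in WT, against 192 and 258 CPM in KI (+0.06, edgeR adjusted p = 0.903), where 2.2% passed. Cnr1 interneurons were at 300.0 and 310 CPM in WT, against 364 and 340 CPM in KI (+0.32, edgeR adjusted p = 0.472), where 0.4% passed. Differences between the subtypes in the Grm7 effect were not tested.

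**Figure D4:**
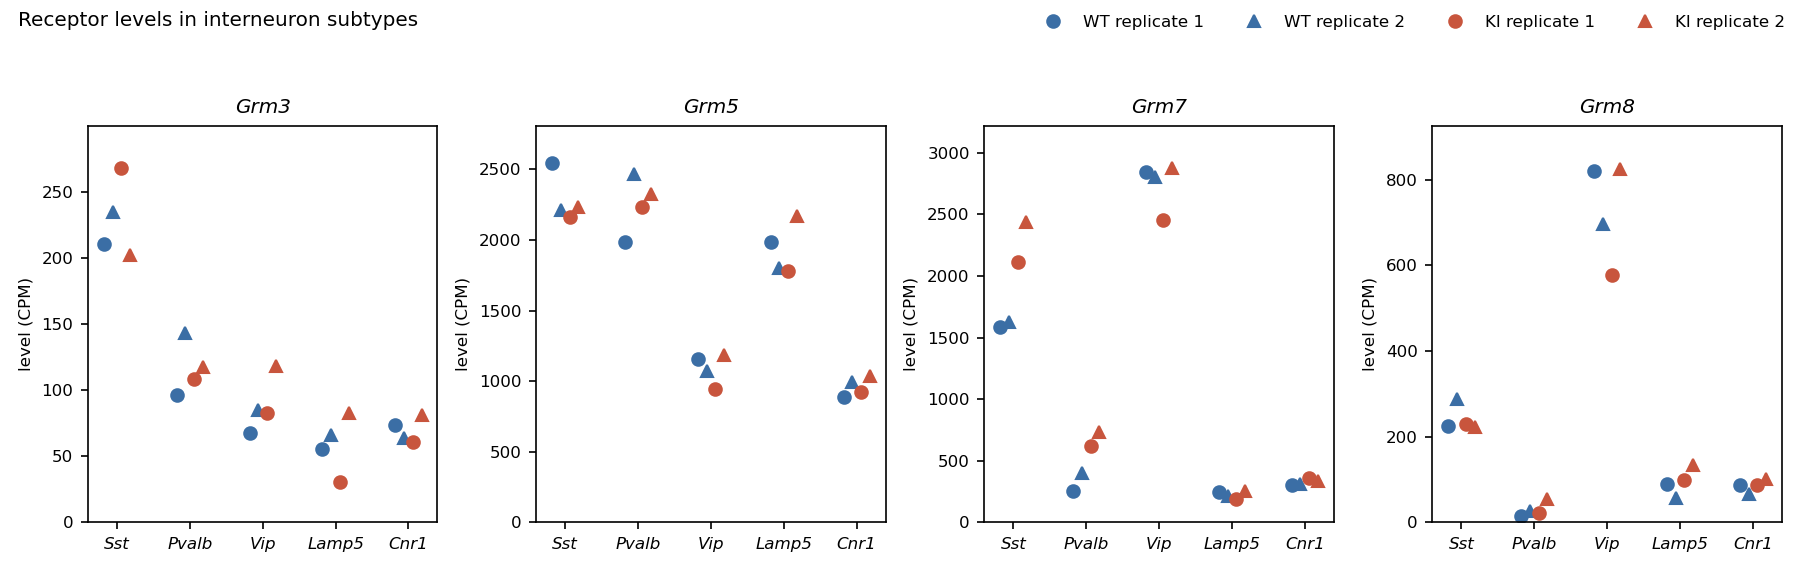
Level of Grm3, Grm5, Grm7 and Grm8 in CPM in the 5 interneuron subtypes, 1 point per library (WT in blue, KI in red). The KI libraries lie above the WT libraries for Grm7 in Pvalb, Sst and Cnr1 interneurons, of which Pvalb and Sst were called, and Vip interneurons hold the most Grm7 and Grm8.

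In the glial classes and the smaller classes 0 receptors passed. The shares of genes tested that passed were 0.112% in astrocytes, 0.857% in oligodendrocytes, 0.0272% in OPC, 0% in microglia (602 genes at an unadjusted p under 0.05), 0% in Cajal-Retzius cells (287), 0% in committed OPC (84), 0% in mural cells (56) and 0.0666% in subicular or cortical neurons. In oligodendrocytes Grm3, the leading receptor of these cells, was at 1320 and 1386 CPM in WT, against 859 and 730 CPM in KI, lower in both KI libraries (-0.70, SE 0.16, edgeR adjusted p = 0.0882). It passed in 5 of 11 alternatives, with an edgeR or DESeq2 adjusted p of 1.54e-14 to 0.740. At an unadjusted p under 0.05 there were 3 members each in astrocytes and oligodendrocytes, 2 each in Cajal-Retzius cells and subicular or cortical neurons, 1 each in OPC, microglia and mural cells and 0 in committed OPC. Genes at that cutoff were 1242 of 10755 in astrocytes and 1868 of 12836 in oligodendrocytes. They were 1064 of 11048 in OPC and 2461 of 15009 in subicular or cortical neurons. DESeq2 called 1 member in oligodendrocytes and 0 in the others. The KI nuclei of the WT-dominated cluster 5 stood at 539 and 675 CPM, on 28 and 73 UMIs, and the WT nuclei of cluster 6 at 1176 and 1119 CPM, on 58 and 16 UMIs. In astrocytes Grm3 was at 580 and 823 CPM in WT, against 381 and 410 CPM in KI (-0.77, SE 0.21, edgeR adjusted p = 0.161). Cajal-Retzius cells held Grm8 at 114 and 61.1 CPM in WT, against 358 and 300.3 CPM in KI (+1.98, SE 0.34, edgeR adjusted p = 0.121), on 10 to 71 UMIs per library. This passed in 6 of 11 alternatives and turned to -0.45 with nuclei gated on markers. Mural cells held 1 and 0 Grm8 UMIs in WT and 9 and 30 in KI (edgeR adjusted p = 0.173), which passed in 4 of 9 alternatives.

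Some members kept 1 direction throughout the main classes. Grm2 was lower in KI in all 6 main classes where it was tested, and 0 of these passed. Grm8 was higher in all 8, and DG alone passed. Grm7 was higher in 7 of 8, all but CA3. Grm3 was higher in 5 and lower in 3, and Grm5 likewise. The classes share mice and free RNA, so these counts are not independent observations.

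Whether the effect of genotype differed between neuron classes was tested as a class-by-genotype term. The widest difference was that of Grm3 between DG and CA1. Its log2 fold change in DG exceeded that in CA1 by 2.31 (edgeR adjusted p = 1.13e-07), that in CA3 by 1.25 and that in inhibitory neurons by 1.43. For Grm8 DG exceeded CA3 by 1.5 and inhibitory neurons by 1.47, on a DG value of +1.85 that was +1.0 within cluster 0 and -0.15 within cluster 1. The term was also past the threshold for Grm5 and Grm8 between DG and CA1, which makes 3 receptors where 13.9% of genes tested passed. Between DG and CA3 there were 4, Grm3, Grm5, Grm7 and Grm8 (11.5%), and between DG and inhibitory neurons 2, Grm3 and Grm8 (9.25%). The Grm5 terms rest on a DG value of +0.22 that was called neither in DG nor within either DG cluster. Between CA1 and CA3 Grm3, Grm7 and Grm8 passed (3 receptors, 3.5%), of which the Grm8 term turned from +0.56 to -0.61 with nuclei gated on markers and passed in 6 of 9 alternatives. The term also passed between CA1 and inhibitory neurons for Grm3 and Grm5 (2, 4.45%), and between CA3 and inhibitory neurons for Grm7 alone (1, 2.26%). For Grm7 the difference of DG from CA3 was 0.53 (edgeR adjusted p = 0.000925), and that of inhibitory neurons from CA3 was 0.72 in the same direction. The DG value behind the first, +0.44, was +0.07 and +0.04 within the 2 DG clusters, and the term was lost without either WT library (edgeR adjusted p up to 0.0803).

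The partners of the receptors were followed in lists of 17 genes each. For group I the list holds the scaffolds that tether the receptors (Homer and Shank proteins), Gq and its effectors. In DG 1 of its 17 members was higher and 5 were lower, with a median log2 fold change of -0.19 against 0.00 over all genes. Itpr1, the receptor through which IP3 releases stored calcium, was at 374 and 363 CPM in WT, against 49.5 and 103 CPM in KI (-2.16, edgeR adjusted p = 0.00822). Homer2, a scaffold that links group I receptors to Itpr1, was at 37.7 and 34.6 CPM in WT, against 11.4 and 14.1 CPM in KI (-1.38, edgeR adjusted p = 0.00450). Homer1 fell by 0.57 (edgeR adjusted p = 0.0326). Plcb4, a phospholipase C driven by Gq, rose from 11.7 and 6.71 CPM to 21.3 and 25.0 CPM (+1.45, edgeR adjusted p = 0.0211). Itpr1 and Homer2 were lower in both KI libraries than in either WT library, and Plcb4 was higher. Within the 2 DG clusters, where WT and KI nuclei were compared apart, 3 of these 6 calls held in both. Itpr1 was lower by 0.91 in cluster 0 and 1.42 in cluster 1 on the log2 scale (edgeR adjusted p = 0.00272 and 0.00130), Homer2 by 0.91 and 1.24 (edgeR adjusted p = 0.0292 and 0.0315) and Homer1 by 0.53 and 1.59 (edgeR adjusted p = 0.0302 and 0.000133). Plcb4 passed in neither and turned to -0.52 in cluster 1. Itpr1 and Homer2 also passed without any 1 of the libraries, while Homer1 was lost without either WT library (edgeR adjusted p = 0.292 and 0.197) and Plcb4 without WT replicate 2 (0.0736).

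In CA1, where Grm5 was lower, 4 of the 17 genes were lower and 0 higher (median -0.23). Homer1 was at 364 and 334 CPM in WT, against 137 and 135 CPM in KI (-1.27, edgeR adjusted p = 0.00308), the steepest of the list, followed by Trpc5, a calcium-permeable channel opened through Gq (-0.56, edgeR adjusted p = 0.0475), and Homer2 (-0.51, edgeR adjusted p = 0.0251). Homer1 passed within both CA1 clusters (-1.41 and -1.08) and without any 1 of the libraries, whereas Trpc5 and Homer2 were lost without either WT library (edgeR adjusted p = 0.136 to 0.317). In CA3 Homer1 alone passed (-0.53, edgeR adjusted p = 0.0368) and was lost without either WT library (0.315 and 0.176), and in inhibitory neurons 0 of 17 did. With all nuclei pooled Homer1 (199 and 195 CPM in WT, 105 and 109 CPM in KI, edgeR adjusted p = 0.0372) and Itpr1 were lower. Homer1 is also a gene that neuronal activity induces within hours, and the deposited counts do not separate its short and long forms.

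**Figure D5:**
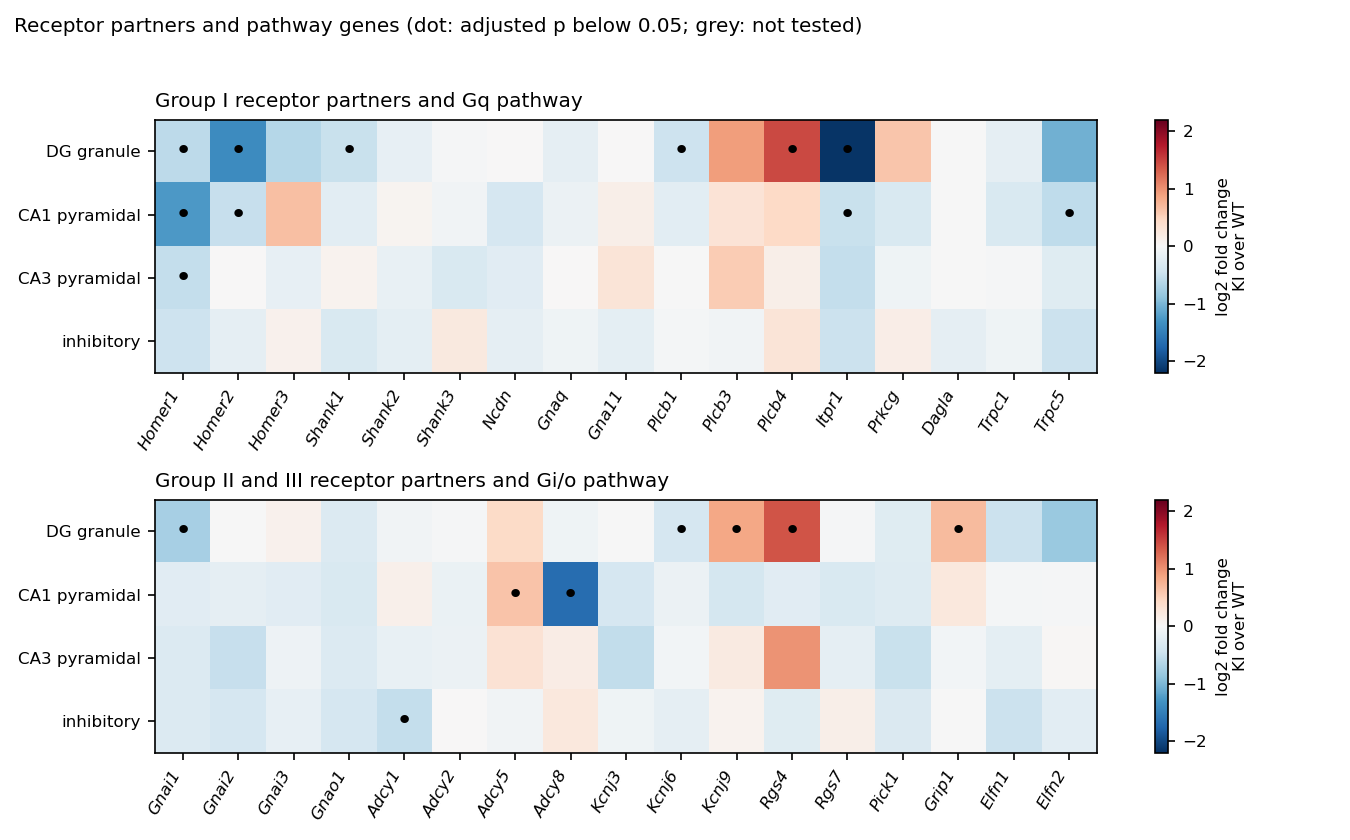
Log2 fold change of KI over WT for the 34 partner genes of the 2 lists in the 4 neuron classes as colour, with a dot for an adjusted p under 0.05. The dotted values run from -2.16 (Itpr1 in DG) to +1.45 (Plcb4 in DG), and Homer1 is dotted as lower in DG, CA1 and CA3.

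For groups II and III the list holds Gi/o subunits, adenylyl cyclases, potassium channels opened by Gi/o and binding partners of the receptors. In DG 3 were higher and 2 lower (median -0.03). The 3 were Rgs4, which shortens G protein signals (+1.38, edgeR adjusted p = 0.00640), the channel subunit Kcnj9 (+0.86, edgeR adjusted p = 0.0163) and the scaffold Grip1 (+0.70, edgeR adjusted p = 0.00767). The 2 were the Gi subunit Gnai1 (-0.72, edgeR adjusted p = 0.0292) and the channel subunit Kcnj6 (-0.37, edgeR adjusted p = 0.0395). Of these 5, Grip1 passed within both DG clusters (+0.68 and +0.85, edgeR adjusted p = 0.00355 and 0.00678) and Gnai1 in cluster 1 alone (-0.93, edgeR adjusted p = 0.0483), while Rgs4, Kcnj9 and Kcnj6 passed in neither. Rgs4 was lost without WT replicate 1 (edgeR adjusted p = 0.0519) and the other 4 without either WT library (0.0671 to 0.429). Adcy8, a cyclase that calcium drives, singled out after its values were seen, did not pass in DG as a whole (-0.10) but was lower within both clusters, by 1.16 and 1.48 on the log2 scale (edgeR adjusted p = 0.00606 and 0.000606). In CA1 1 was higher and 1 lower, both cyclases that Gi/o inhibits or calcium drives. Adcy8 was at 116 and 123 CPM in WT, against 40.1 and 29.9 CPM in KI (-1.68, edgeR adjusted p = 0.00574), and Adcy5 was higher by 0.63 (edgeR adjusted p = 0.0340). Adcy8 passed in both CA1 clusters and without any 1 of the libraries, and Adcy5 in cluster 2 alone and not without either WT library (edgeR adjusted p = 0.391 and 0.245). Adcy1 was lower in inhibitory neurons (-0.52, edgeR adjusted p = 0.0478, lost without either WT library) and Gnai1 in oligodendrocytes (-0.92, edgeR adjusted p = 0.0406), and 0 of 17 passed in CA3 and with all nuclei pooled. These counts of 0 to 6 of 17 compare with the shares of all genes given above, 10.3% in DG and 7.33% in CA1.

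The retinal receptor Grm6 gave 2 UMIs over all kept nuclei and was not tested.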

How the data were processed

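The 4 libraries, 2 WT and 2 KI, were made from single nuclei in droplets. The authors deposited raw counts of UMIs per gene and barcode, not normalized, made with Cell Ranger 7.0.1 on mm10 per the labels and file headers. Their use of intronic reads is not given in the sources used here. Titles gave the groups.

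A barcode was kept with 500 genes or more and less than 5% mitochondrial UMIs (345 removed), and 3279 with a Scrublet doublet score of 0.25 or more (scanpy 1.11.5) were dropped, a limit set once the automatic one had marked 0 in KI replicate 2. The 2000 most variable genes, without 42 receptor and pathway genes, gave 30 components, clustered with leidenalg 0.10.2 at a resolution of 1.0, raised from 0.5 on sight of the clusters. A name needed at least 3 and at least 50% of a type's markers raised 2-fold. The other limits of naming, and keeping a cluster led by Zic genes out of the inhibitory class, were also set on sight of the clusters. Names can differ from those of the study.

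UMIs were summed per library and class (20 nuclei or more in each library). The quasi-likelihood test of edgeR 4.0.16 in R 4.3.3, after its filter on low counts and TMM scaling, compared the genotypes, with Benjamini-Hochberg adjustment over all genes of a comparison and a threshold of 0.05. CPM are UMIs scaled by the class total of that library. Between classes the library was a block. Nuclei were never replicates. Shares of nuclei were taken after thinning to 1000 UMIs. Alternatives were DESeq2 1.42.0, library totals, no low-count filter, at least 1000 genes per nucleus, no doublet removal, a marker gate on each nucleus, leaving out each library, a replicate block and, added after seeing the data, fits within clusters and with the Zic cluster. On simulated counts the edgeR step recovered 73% of genes changed 2-fold and 93% of those changed 4-fold among 16244 genes in DG, and 60% and 93% among 16159 genes in CA1.

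All 6 members were named in every comparison, with up to 3 partner genes per list, direction and main class, by log2 fold change among those past the threshold, and the 3 genes with the highest correlation to each member. Results for some genes that this rule names are not reported here. Members, lists and tests were chosen with earlier results of these data known.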

Additional observations from a re-analysis of the deposited data

Results flagged for a closer look

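The effect of genotype on a receptor differed between 2 neuron classes, by the class-by-genotype term of edgeR, in 15 cases. Values are differences of log2 fold changes of KI over WT, with edgeR adjusted p-values.

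Between DG and CA1, Grm3 differed by 2.31 (edgeR adjusted p = 1.13e-07), Grm8 by 0.94 (edgeR adjusted p = 0.000202) and Grm5 by 0.59 (edgeR adjusted p = 0.000398), each higher in DG. For Grm3 the KI libraries lay above WT in DG and below WT in CA1. Between DG and CA3 the differences were 1.25 for Grm3 (edgeR adjusted p = 8.86e-06), 1.5 for Grm8 (edgeR adjusted p = 0.000383), 0.53 for Grm7 (edgeR adjusted p = 0.000925) and 0.33 for Grm5 (edgeR adjusted p = 0.0245). Between DG and inhibitory neurons they were 1.43 for Grm3 (edgeR adjusted p = 9.53e-06) and 1.47 for Grm8 (edgeR adjusted p = 0.00329). The Grm8 differences rest on a DG value that was +1.0 within cluster 0 and -0.15 within cluster 1, and the Grm7 difference on one that was +0.07 and +0.04 there. The Grm5 differences rest on a DG value of +0.22 that was not called. It shrank within both DG clusters and was called in neither. Of these differences from DG, 2 were lost in some alternatives. That of Grm7 from CA3 was called in 7 of 9, not without either WT library (edgeR adjusted p up to 0.0803). That of Grm5 from CA3 was called in 6 of 9, not without either WT library or with library totals (edgeR adjusted p up to 0.354).

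Between CA1 and CA3, Grm3 differed by -1.06 (edgeR adjusted p = 1.33e-05), Grm7 by 0.37 (edgeR adjusted p = 0.00951) and Grm8 by 0.56 (edgeR adjusted p = 0.0460). The Grm8 difference turned to -0.61 with nuclei gated on markers (edgeR adjusted p = 0.0750) and was lost without WT replicate 1 or KI replicate 1 (up to 0.470). The Grm7 difference was lost with the gate and without either WT library (up to 0.210). Between CA1 and inhibitory neurons Grm3 differed by -0.90 (edgeR adjusted p = 0.000529) and Grm5 by -0.50 (edgeR adjusted p = 0.00905), both lower in CA1, and that of Grm5 was lost without either WT library (up to 0.129). Between CA3 and inhibitory neurons Grm7 differed by -0.72 (edgeR adjusted p = 0.00118), which was lost without WT replicate 1 (edgeR adjusted p = 0.145). The classes of 1 library share a mouse, which the library block takes into account.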

How the results depend on the processing

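The Grm3 and Grm8 calls in DG held in every alternative chosen at the outset, and Grm3 also within both DG clusters, where Grm8 turned to -0.15 in cluster 1. Grm7 turned to -0.10 in cluster 20 of the inhibitory neurons. The Pvalb call of Grm7 held in all 8 alternatives run for it. Counts of receptors called for KI against WT moved as follows. DESeq2 gave 2 over all nuclei and 1 in oligodendrocytes. No low-count filter gave 4 in CA1, 2 in oligodendrocytes, and 1 each in astrocytes, OPC, Cajal-Retzius cells, mural cells and Lamp5 interneurons. Library totals gave 0 in inhibitory neurons and 0 in Sst interneurons. The gate gave 1 in CA1 and 0 in inhibitory neurons, at least 1000 genes gave 1 in Cajal-Retzius cells, and the Zic cluster gave 0 in inhibitory neurons. Fits within clusters gave 1 in cluster 1 of DG, 1 in cluster 2 of CA1 and 0 in cluster 17 of the inhibitory neurons. The cause of these changes was not tested. The number of all genes called changed beside these receptor counts. It changed widely in 18 comparisons without the low-count filter, and in 10 with DESeq2, where 8 stayed close. With the replicate block it changed widely in 13, where 5 stayed close, and without a library in 60 fits, where 12 stayed close. The receptor counts here and below are thus not results about the receptors alone.

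The replicate block, for numbers that the labels tie to no litter or day, gave 2 over all nuclei. It gave 1 each in oligodendrocytes, Cajal-Retzius cells and mural cells. Deviations of same-numbered WT and KI libraries from their genotype means were correlated over genes. The correlation was -0.037 in DG, -0.032 in CA1 and in oligodendrocytes, -0.086 in Cajal-Retzius cells and 0.347 in mural cells.

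Leaving out each library leaves a lone one that is assumed to vary like the other group. The counts then ranged from 0 to 3 over all nuclei, 2 to 5 in DG, 0 to 5 in CA1, 0 to 2 in CA3, 0 to 3 in inhibitory neurons, 0 to 2 in astrocytes, 0 to 3 in oligodendrocytes, 0 to 2 in OPC, 0 to 3 in microglia, 1 to 2 in Pvalb interneurons, and 0 to 1 in Sst and Lamp5 interneurons, Cajal-Retzius cells, committed OPC and mural cells. Without KI replicate 2 the DG count was 5 and the CA1 count 5. In Lamp5 interneurons Grm3 without KI replicate 2 was -0.87, the lowest of the 4 values, which reached +0.53.

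For classes against each other the OPC count was 0 with library totals, without doublet removal and with the gate, and ranged from 0 to 1 without a library, that of microglia from 1 to 4. Grm8 turned to +0.94 in CA1 with the gate, +0.14 in astrocytes and -1.23 in microglia without doublet removal, Grm3 to +0.85 in microglia with the gate, and Grm5 to +0.0030 in microglia with library totals. The mean Grm8 level in inhibitory neurons was 243 CPM with the gate, under which Grm7 no longer stood highest in DG. Between CA1 and CA3 the gate gave 1 receptor and Grm8 turned to -0.61, and between CA1 and inhibitory neurons no low-count filter gave 4. Without a library these counts ranged from 3 to 4 (DG and CA1), 2 to 5 (DG and CA3), 2 to 3 (DG and inhibitory), 1 to 3 (CA1 and CA3, CA1 and inhibitory) and 0 to 1 (CA3 and inhibitory).

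The share of all genes called moved far more. Of the genes called for KI against WT, the 190 over all nuclei became 169 to 7130, the 1678 in DG 370 to 8029, the 1184 in CA1 254 to 6839, the 405 in CA3 221 to 4909 and the 295 in inhibitory neurons 2 to 4490, each highest without KI replicate 2. Library totals lowered the mean log2 fold change of Grm5 and Grm7 by 0.13 in DG and 0.11 in inhibitory neurons. The shift was 0.16 in Sst and 0.13 in Pvalb interneurons, and 0.05 over all nuclei. Depth limits Grm2 and Grm4, with 2894 and 1873 UMIs in all.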

Other observations

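Clusters that received no name also held receptors. The highest Grm4 of any cluster, 61.3 CPM over the pooled libraries, was in cluster 23, whose 309 nuclei came from 3 libraries, 45 of WT replicate 1, 223 of KI replicate 1, 41 of KI replicate 2 and 0 of WT replicate 2. The highest Grm7, 3212 CPM, was in cluster 19, of which WT replicate 1 gave 2 of 893 nuclei. The highest Grm8, 998 CPM, was in cluster 15, led by Zic genes, of which WT replicate 2 gave 79 of 1274 nuclei. The libraries thus contributed unequally to these clusters, and no genotypes were compared in them.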
